A study of Homo sapiens with 4 samples.

Results

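Aminoacyl-tRNA synthetases join each amino acid to its transfer RNA, the step that fixes the reading of the genetic code. For most amino acids human cells carry separate nuclear genes for the cytosolic enzyme and for the one imported into mitochondria. Several cytosolic enzymes are held together in a multisynthetase complex. Transcription of many cytosolic synthetase genes is known to be raised by ATF4, the transcription factor of the amino acid response, and that of WARS1 by interferon gamma. The genes described here are 35 named members of this enzyme family, 19 cytosolic and 16 mitochondrial (symbols ending in 2), chosen by their gene symbols and not by their values. Each gene was read from its brightest probe set that lists no other gene. In this way 34 of the 35 were measured, all 19 cytosolic and 15 mitochondrial ones, among 12519 protein-coding genes tested in all. SARS2, the mitochondrial seryl enzyme, has only probe sets shared with FBXO17 and has no value of its own.

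The samples were cultures of MV4-11, an established human acute myeloid leukaemia cell line, transduced with a short hairpin RNA and kept in 3 µM doxycycline for 24 h. Hairpins against RUNX1, a transcription factor of blood cell development, were labelled moderate, profound 1 and profound 2 by the efficacy of knockdown, and the control hairpin was directed at luciferase. All 4 groups thus shared the line, the transduction and the drug, and each comprised 1 array. The study asked how expression differs between degrees of RUNX1 knockdown.

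The arrays had median signals between 3.07 and 3.09 on the log2 scale of RMA, the method that made the deposited values. Of 14 markers of the myeloid line, 12 had a probe set of their own and 11 exceeded the table median (3.08) in at least 1 array, among them FLT3 at 9.28 to 9.46, whereas the monocyte receptor gene CD14 stayed at 2.10 to 2.33. Of the markers of other cells with a probe set of their own, 1 of 5 T cell and 3 of 4 B cell ones exceeded the median in at least 1 array. So did 2 of 4 erythroid, 3 of 5 epithelial and 2 of 5 fibroblast markers. The highest signal in these lists was 4.80, and the myeloid markers ITGAM (3.78 to 3.89) and ANPEP (3.56 to 4.62) also lay below that. The targeted gene was read from a probe set shared with a second locus: RUNX1 signal was 4.33 in the array labelled moderate, 4.07 with the profound 1 hairpin and 4.04 with profound 2, against 4.27 in control. It did not follow the label moderate. In profound 1 (-0.19 log2 units) and profound 2 (-0.22) it stayed within the spread defined below, which was 0.28 and 0.25 for tested genes of such signal. Knockdown was thus not shown by this probe set in any array. The arrays are therefore named by their labels, and every direction below is one between labels. The array labelled profound 1 stood apart, with 100 tested genes at least 2-fold from control, compared with 8 in the array labelled moderate and 9 in profound 2. Since each group had 1 array, the differences below have no replicate check and no test was made; the number of arrays limits their precision. They are set beside the same measure over all tested genes, and beside a spread, which is the median absolute deviation of the difference over genes of similar signal, scaled to an SD. In bulk RNA, fewer cells of a type and less RNA per cell cannot be told apart. Grouping followed the titles and genotypes, which give RUNX1; the description fields give RUNX2 for profound 1 and RUNX3 for profound 2.

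In the array labelled profound 1, 1 of the 34 measured synthetase genes differed from control by at least 1.5-fold. This was AARS1, the cytosolic alanyl enzyme gene, which was lower; across the tested genes 4.04% were lower by that size and 2.68% higher. No member reached 1.5-fold in the array labelled moderate, where 0.447% of tested genes were lower and 0.863% higher by that size, or in profound 2, where 1.01% were lower and 1.2% higher. At 1.2-fold, 5 of 34 were lower in profound 1 (AARS1, YARS1, GARS1, SARS1 and MARS2) beside 17.2% of tested genes, and 2 were higher (QARS1 and HARS2) beside 15.7%. MARS2 alone was lower by that size in the array labelled moderate (1 of 34, beside 7.14%) and none was higher (beside 9.49%). YARS1 and LARS2 were lower in profound 2 (2 of 34, beside 9.75%) and none was higher (beside 10.6%). As shares of the members the lower counts came to 2.94% in the array labelled moderate, 14.7% with the profound 1 hairpin and 5.88% with profound 2. Each was under the share among all tested genes, but that share depended on signal. In the brightest of 6 signal classes 1.77%, 17.9% and 3.07% of genes were lower by 1.2-fold in the same arrays. That class held 15 of 19 cytosolic and 2 of 15 mitochondrial members, so the share over all tested genes is not matched to the members' signal.

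**Figure D1:**
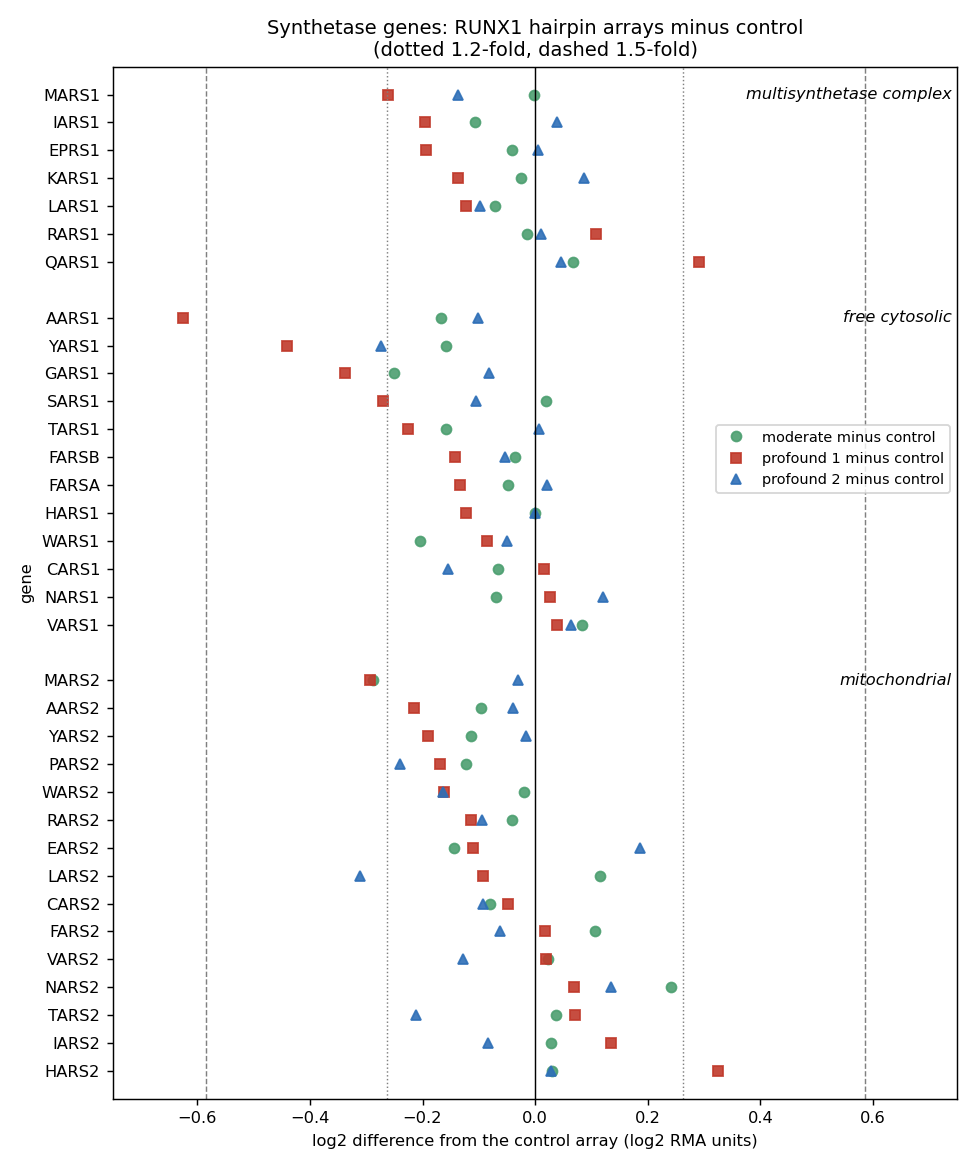
Log2 difference of each of 34 synthetase genes from the control array (x axis, log2 RMA units) in the arrays labelled moderate (green circles), profound 1 (red squares) and profound 2 (blue triangles); dotted and dashed lines mark 1.2-fold and 1.5-fold. AARS1 in profound 1, at -0.63, is the only point beyond the dashed lines.

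The direction of the small differences depended on the class and the array. Of the 19 cytosolic genes, 16 lay below control in the array labelled moderate, 14 with the profound 1 hairpin and 9 with profound 2, while 48.1%, 50.5% and 50.3% of all tested genes did so. Their median differences were -0.05, -0.14 and 3e-05 log2 units, against medians over all tested genes of 0.0063, -0.0029 and -0.0015. Most cytosolic probe sets (15 of 19) fell in the brightest of 6 signal classes, in which 51.0%, 53.8% and 52.1% of genes lay below control in the same arrays. Of the 15 mitochondrial genes, 8, 9 and 12 lay below control, with medians of -0.02, -0.09 and -0.08 log2 units. The cytosolic median was thus below the mitochondrial one by 0.03 and 0.04 log2 units in the arrays labelled moderate and profound 1, and above it by 0.08 in profound 2. These gaps were not matched for signal, since most mitochondrial members fell in classes 3 to 5 (class 1 the dimmest). Those classes had medians of 0.03, 0.02 and -0.0047 in the array labelled moderate, against -0.0024 in the brightest. In profound 2 they were -0.02, -0.02 and -0.0069, against -0.0065. The gaps were also smaller than the spread over all tested genes (0.17, 0.26 and 0.19). All of these comparisons share the control array, so its own deviation would move them together.

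Next, the promoters were examined for the element through which ATF4 and its C/EBP partners act, since it is known from synthetase genes. The window was RefSeq's 250 bases before to 50 after each gene's start (GRCh38.p14), found for 30 of the 35 members, and the motif TGATGNAA was searched on both strands (TTNCATCA on the other). Some genes have several annotated starts and so several windows, 5 of them cytosolic members and 4 mitochondrial, and a gene was counted if any window held the motif. By gene, it was present in 7 of 16 cytosolic members (43.8%) and in 1 of 14 mitochondrial ones (7.14%), beside 2.72% of tested genes with a window. By window, it was present in 7 of 21 cytosolic (33.3%) and 1 of 18 mitochondrial windows (5.56%), beside 3.62% of all windows. Of 21 genes of the ATF4 amino acid response with a window, 6 held it, among them ASNS and CHAC1. The matches follow with 11 bases on either side, 5′ to 3′ on the gene's strand and with the motif in capitals, because the motif was found mostly in windows of cytosolic members; a match is a description of the letters and not evidence of binding.
AARS1 (chr16:70289675-70289704, minus strand): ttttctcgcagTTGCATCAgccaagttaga
CARS1 (chr11:3057407-3057436, minus strand): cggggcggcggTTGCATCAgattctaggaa
GARS1 (chr7:30594834-30594863, plus strand): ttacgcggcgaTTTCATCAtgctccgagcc
IARS1 (chr9:92293692-92293721, minus strand): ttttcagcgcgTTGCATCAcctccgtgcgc
MARS1 (chr12:57488053-57488082, plus strand): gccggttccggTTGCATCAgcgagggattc
NARS1 (chr18:57621804-57621833, minus strand): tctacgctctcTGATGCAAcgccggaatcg
TARS1 (chr5:33440956-33440985, plus strand): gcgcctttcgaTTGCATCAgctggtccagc
YARS2 (chr12:32756076-32756105, minus strand): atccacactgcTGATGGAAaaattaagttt
In 5 of the cytosolic genes the motif lies on the strand opposite to transcription and reads TTGCATCA along the gene. It begins 2 bases before the start of its window's transcript in CARS1, 4 in MARS1, 13 in IARS1, 33 in GARS1 and 187 in AARS1, and at the third base of the transcript in TARS1 and base 15 in NARS1. The YARS2 match lies 197 bases before the start. The 250 bases before the start of AARS1, the member with the largest difference, are given whole (chr16:70289507-70289756, minus strand), with the same match in capitals.
AARS1 upstream: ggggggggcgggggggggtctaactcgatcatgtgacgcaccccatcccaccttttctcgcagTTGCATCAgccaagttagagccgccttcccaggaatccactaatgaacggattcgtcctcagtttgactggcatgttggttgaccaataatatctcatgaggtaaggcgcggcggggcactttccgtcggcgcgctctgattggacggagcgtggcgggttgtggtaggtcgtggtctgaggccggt

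Cytosolic genes with the motif differed among themselves. In profound 1 their median difference was -0.23 log2 units, with AARS1 lowest (-0.63) and NARS1 highest (0.03), and 5 of 7 lay below control. The 9 cytosolic genes whose windows held no match had a median of -0.13, and 7 of 9 lay below control. LARS1, YARS1 and VARS1 had no window and stand in neither group. They were at -0.12, -0.44 and 0.04 in that array, and YARS1 was the lowest cytosolic gene in profound 2 (-0.27). In the array labelled moderate the medians were -0.11 with the motif and -0.02 without it, and 7 of 7 and 7 of 9 genes lay below control. In profound 2 they were -0.08 and 0.0043, with 4 of 7 and 3 of 9 genes below control.

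AARS1 and YARS1 carried the largest differences of the free cytosolic enzymes, those outside the complex. AARS1 signal was 9.57 in the array labelled moderate, 9.11 with the profound 1 hairpin and 9.64 with profound 2, against 9.74 in control. All 3 RUNX1 hairpin arrays lay below control, and profound 1 was the lowest at 1.54-fold. The array labelled moderate (-0.17 log2 units) also exceeded the spread at this signal, which was 0.11 there, and profound 2 (-0.10) did not exceed its spread of 0.13. Of all tested genes, 3.37% were as far below control in profound 1, where the spread was 0.22. YARS1, which encodes the cytosolic tyrosyl enzyme, had signals of 8.40, 8.12 and 8.29 in the arrays labelled moderate, profound 1 and profound 2, against 8.56 in control. It was the only member at least 1.2-fold lower in both arrays labelled profound, at -0.44 and -0.27 log2 units, and was lower by 0.16 in the array labelled moderate. In profound 2 it only just passed that size (1.21-fold), and it fell short of it there after centring on the tested genes. The spread for genes of this signal was 0.11, 0.22 and 0.13 in the comparisons with moderate, profound 1 and profound 2, so YARS1 exceeded it in each.

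GARS1, whose product charges glycine in the cytosol and in mitochondria, read 8.82 in the array labelled moderate, 8.74 with the profound 1 hairpin and 8.99 with profound 2, against 9.07 in control. Both the moderate and the profound 1 array were low, by 0.25 and 0.34 log2 units, and profound 2 was within its spread of control (-0.08). SARS1, the cytosolic seryl enzyme gene, was at least 1.2-fold below control in profound 1 alone, with signals of 6.77, 6.49 and 6.65 in the RUNX1 hairpin arrays and 6.76 in control. TARS1, the threonyl enzyme gene, had differences of -0.16, -0.23 and 0.01 log2 units in the arrays labelled moderate, profound 1 and profound 2.

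The remaining free enzymes differed little. FARSA and FARSB encode the α and β subunits of the cytosolic phenylalanyl enzyme, and their differences followed each other closely, at -0.05 and -0.04 in the array labelled moderate, -0.13 and -0.14 in profound 1, and 0.02 and -0.05 in profound 2. WARS1, the tryptophanyl enzyme gene, was lower in the array labelled moderate (-0.20) than in profound 1 (-0.08) and profound 2 (-0.05). CARS1, the cysteinyl enzyme gene, lay furthest from control in profound 2 (-0.15), and NARS1, the asparaginyl one, lay above control there (0.12). HARS1, the histidyl enzyme gene, and VARS1, the valyl enzyme gene whose product binds the elongation factor EEF1 complex, had furthest differences of -0.12 and 0.08 log2 units over the 3 comparisons with control. The other VARS1 probe set gave 0.07, -0.01 and 0.0023 for the arrays labelled moderate, profound 1 and profound 2.

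**Figure D2:**
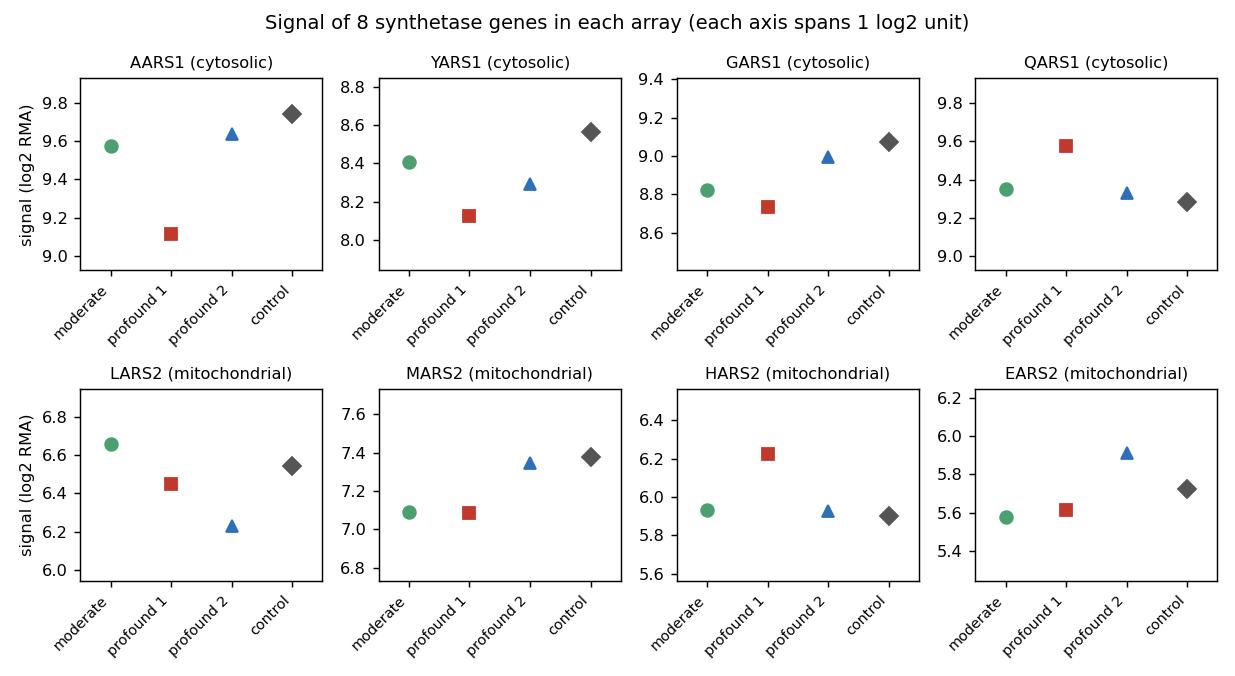
Signal (y axis, log2 RMA; each axis spans 1 log2 unit) of 8 synthetase genes, chosen after their values were seen because they vary most or in different arrays, in the arrays labelled moderate, profound 1 and profound 2 and in control, 1 array each. AARS1 is below control in every RUNX1 hairpin array and lowest in profound 1, QARS1 and HARS2 are high there, LARS2 is low and EARS2 high in profound 2, and YARS1 is below control in each.

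The 7 measured enzymes of the multisynthetase complex had median differences of -0.02, -0.14 and 0.01 log2 units in the arrays labelled moderate, profound 1 and profound 2. The 12 free cytosolic enzymes had medians of -0.07, -0.14 and -0.05. In profound 1 the members of the complex lay on both sides of control. MARS1, which encodes the methionyl enzyme that also charges the initiator transfer RNA, was lowest, with signals of 8.47, 8.22 and 8.34 in the arrays labelled moderate, profound 1 and profound 2, against 8.48 in control; its difference in profound 1 (-0.26) fell just short of 1.2-fold. QARS1, the glutaminyl enzyme gene, was highest, with 9.35, 9.57 and 9.33 against 9.28 in control, a difference of 0.29 log2 units in profound 1 and 0.07 and 0.05 in the arrays labelled moderate and profound 2. Members of the same complex thus differed by opposite signs in that array. RARS1, the arginyl enzyme gene, was the other member above control there (0.11).

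EPRS1, a bifunctional enzyme gene for glutamate and proline, IARS1 for isoleucine, LARS1 for leucine and KARS1 for lysine lay between -0.20 and -0.12 log2 units of control in profound 1. The same genes lay between -0.11 and -0.02 in the array labelled moderate and between -0.10 and 0.09 in profound 2. AIMP1, the scaffold protein gene of the complex that had its own probe set, read 9.19, 9.35 and 9.15 against 9.27 in control. Its sign in profound 1 (0.07) was that of QARS1 and RARS1 and not that of the other complex members.

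Among mitochondrial enzymes no difference reached 1.5-fold, and the furthest ones fell in different arrays for different genes. LARS2, the mitochondrial leucyl enzyme gene, had signals of 6.66, 6.45 and 6.23 in the arrays labelled moderate, profound 1 and profound 2, against 6.54 in control. It was above control in the first (0.12) and lowest in profound 2 (-0.31, 1.24-fold), where the spread was 0.18. MARS2, for methionine, read 7.09, 7.09 and 7.35 against 7.38, low in the arrays labelled moderate (-0.29) and profound 1 (-0.29) and near control in profound 2 (-0.03). HARS2, for histidine, was high in profound 1 alone: its signals were 5.93, 6.22 and 5.93, against 5.90 in control, a difference of 0.33 log2 units (1.25-fold, spread 0.28). EARS2, whose product attaches glutamate, read 5.58, 5.61 and 5.91 against 5.72, and so lay below control in the first pair and above it in profound 2 (0.19).

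The other mitochondrial members moved less than 1.2-fold in each comparison with control. NARS2, for asparagine, was above control in all 3 arrays (0.24, 0.07 and 0.13 log2 units). PARS2, for proline, was below it in all 3 (-0.12, -0.17 and -0.24), as were AARS2, for alanine (-0.10, -0.22 and -0.04), YARS2, for tyrosine (-0.11, -0.19 and -0.02), and WARS2, for tryptophan (-0.02, -0.16 and -0.16). TARS2, for threonine, had its furthest value in profound 2 (-0.21). In all, 7 of 15 mitochondrial and 7 of 19 cytosolic genes were below control in all 3 RUNX1 hairpin arrays, beside 22.7% of tested genes, and 2 of each class were above it in all 3, beside 23.7%. The differences of RARS2, CARS2, IARS2, FARS2 and VARS2, for arginine, cysteine, isoleucine, phenylalanine and valine, lay between -0.13 (VARS2 in profound 2) and 0.13 (IARS2 in profound 1). VARS2 has 7 probe sets of its own, 6 of them with distinct values, and their differences ranged from -0.13 to 0.05 in profound 1 and from -0.13 to -0.05 in profound 2. The brighter probe set shared by SARS2 and FBXO17 read 8.28, 8.38 and 8.20 in the RUNX1 hairpin arrays, against 8.17 in control.

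Pairing the enzymes by amino acid gave 15 comparisons of a cytosolic with a mitochondrial enzyme, in which EPRS1 enters for both glutamate and proline. Relative to control the cytosolic enzyme was the lower of the pair for 9 amino acids in the array labelled moderate, for 10 in profound 1 and for 7 in profound 2. Histidine gave the widest gap in profound 1, where HARS1 was at -0.12 and HARS2 at 0.33 log2 units. Alanine followed, with AARS1 at -0.63 and AARS2 at -0.22, both below control. Isoleucine (IARS1 -0.20, IARS2 0.13) and threonine (TARS1 -0.23, TARS2 0.07) had opposite signs, and arginine ran the other way (RARS1 0.11, RARS2 -0.11). In profound 2 the threonine pair was reversed, with TARS1 at 0.01 and TARS2 at -0.21. Synthetases also fall into 2 structural classes by the fold of their catalytic domain. The cytosolic class II genes had a median of -0.14 log2 units in profound 1 and the cytosolic class I genes one of -0.08, with 9 genes in each and EPRS1, which holds both folds, left out. The order was the other way round in the array labelled moderate (-0.05 for class II and -0.07 for class I) and in profound 2 (3e-05 for class II and -0.05 for class I).

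**Figure D3:**
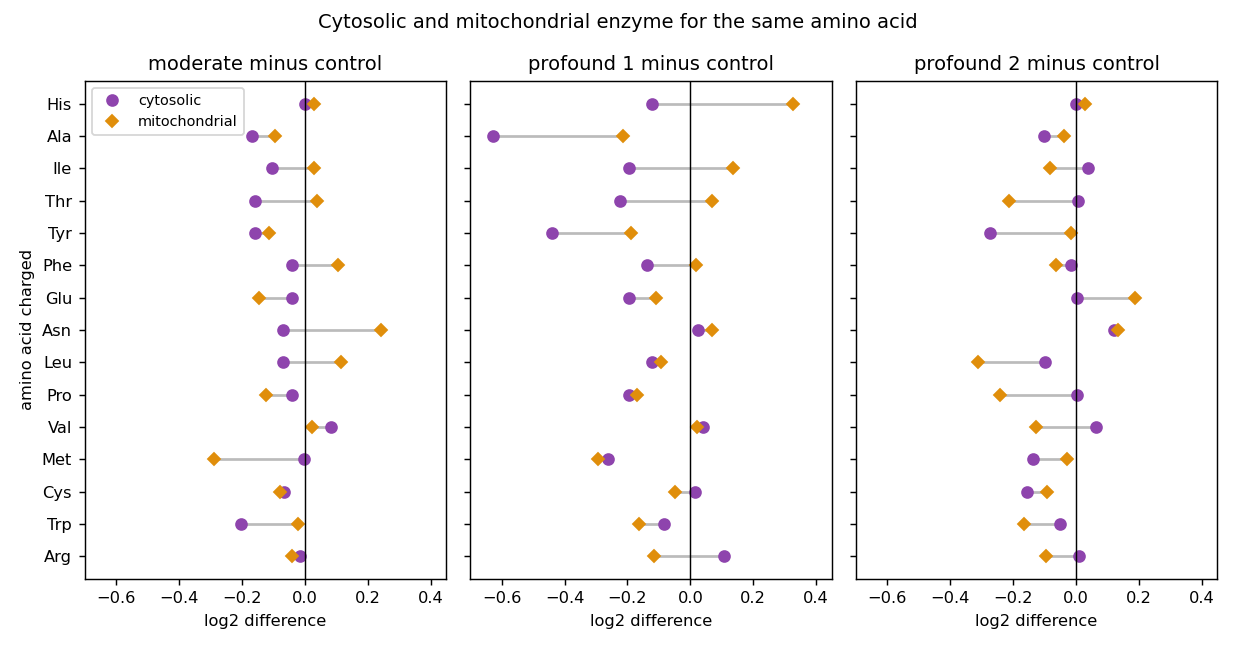
Log2 difference from control (x axis) of the cytosolic enzyme gene (purple circles; mean of FARSA and FARSB for Phe) and the mitochondrial one (orange diamonds) for each of 15 amino acids, in the arrays labelled moderate, profound 1 and profound 2. Rows follow the gap in profound 1; the cytosolic symbol is the left one for 10 of 15 amino acids there and for 7 of 15 in profound 2.

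Comparisons among the RUNX1 hairpin arrays do not use the control. Between profound 1 and profound 2, 16 of 19 cytosolic genes were lower in profound 1, with a median of -0.12 log2 units, and 6 of 15 mitochondrial genes were, with a median of 0.04; among all tested genes 51.1% were lower and the median was -0.0071. The difference between the class medians, -0.17 log2 units, was the widest of the 6 comparisons made. No member differed by 1.5-fold, beside 2.95% of tested genes lower and 2.06% higher by that size. At 1.2-fold AARS1 (-0.52), EARS2 (-0.30) and MARS2 (-0.26) were lower in profound 1, 3 of 34 beside 17.1%, and HARS2 (0.30) and TARS2 (0.28) were higher, 2 of 34 beside 14.7%. The high members were thus mitochondrial, and the low ones came from both classes.

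Set against the array labelled moderate, profound 1 had 14 of 19 cytosolic and 10 of 15 mitochondrial genes lower, beside 51.8% of tested genes. At 1.2-fold AARS1 (-0.46), SARS1 (-0.29) and YARS1 (-0.28) were lower, 3 of 34 beside 17%, and HARS2 (0.30) was higher, 1 of 34 beside 12.8%. Profound 2 had 8 of 19 cytosolic and 11 of 15 mitochondrial genes lower than the array labelled moderate, beside 52.4%. There LARS2 (-0.43) was lower by 1.2-fold, 1 of 34 beside 12.1%, and EARS2 (0.33) was higher, 1 of 34 beside 10.7%. No member reached 1.5-fold against the array labelled moderate, a size at which 3.49% of tested genes were lower and 1.65% higher in profound 1, and 1.6% lower and 1.04% higher in profound 2.

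Genes that work beside the synthetases were then described. Of 15 measured cytosolic elongation and initiation factor genes, 5 were at least 1.2-fold lower than control in profound 1 (median -0.16 log2 units), where 17.2% of all tested genes were. They were led by EIF2S1, the initiation factor subunit whose phosphorylation raises ATF4 translation (-0.41), EEF1D, an elongation factor gene (-0.41), and EIF4EBP1, a repressor of cap-dependent initiation (-0.28). None was lower by that size in profound 2 (median 0.03), beside 9.75% of tested genes. Of 18 transfer RNA maturation and export genes, 3 were lower by that size in profound 1 (median -0.14), the RNase P and MRP protein genes POP7 (-0.51) and RPP25 (-0.45) and the ligase gene RTCB (-0.32). That is near the 17.2% of all tested genes. In profound 2, 2 were lower by that size beside 9.75%, RPP30 (-0.28) and RPP40 (-0.27), which also encode RNase P proteins. The 10 mitochondrial translation factor genes had medians of -0.07, -0.08 and -0.08, and MTRF1, a release factor gene, was at -0.38 in profound 1. The mitochondrial amidotransferase genes, which make glutaminyl transfer RNA in place of a mitochondrial glutaminyl enzyme, differed by 0.30 log2 units for GATB, -0.14 for GATC and -0.04 for QRSL1 in profound 1. DTD2, which encodes a deacylase that removes wrongly attached amino acids from transfer RNA, read 5.94, 6.08 and 6.15 in the arrays labelled moderate, profound 1 and profound 2, against 5.49 in control. It was above control in each, by 0.46, 0.60 and 0.66 log2 units. It passed 1.5-fold in both arrays labelled profound, beside 2.68% of tested genes higher in profound 1 and 1.2% in profound 2. DTD1, the other of the 2 measured genes in the editing and deacylation list, was at 0.0063, -0.14 and -0.03 in the same order.

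Within the 25 measured genes of the ATF4 amino acid response, 7 were at least 1.5-fold lower than control in profound 1 and 1 was higher, beside 4.04% and 2.68% of all tested genes. The lower ones make serine, asparagine or folate-linked products or carry amino acids: ALDH1L2 (-1.48 log2 units), PHGDH (-1.25), the glutamine carrier gene SLC1A5 (-0.99), PSAT1 (-0.85), ASNS (-0.76) and SLC7A5 (-0.65), together with SESN2, a stress sensor gene (-0.72). The cystine carrier gene SLC7A11 was higher (0.72), and ATF4 itself was at -0.03. In profound 2, 1 was lower (SLC7A11, -0.61) and 2 were higher (DDIT4, 0.70, and DDIT3, 0.59), beside 1.01% and 1.2% of tested genes. DDIT3 was dim, at 2.93 in control and 2.92 in the array labelled moderate, both below the table median (3.08). It passed the filter only through profound 1 (3.46) and profound 2 (3.52), the arrays in which it was higher, so its count there is not independent of the filter. In the array labelled moderate none passed that size, beside 0.447% lower and 0.863% higher. The list medians were -0.05, -0.23 and 0.01 log2 units in the arrays labelled moderate, profound 1 and profound 2. As a split made after the values were seen, the 12 cytosolic synthetase genes known as ATF4 targets had a median of -0.21 in profound 1 (10 of 12 below control), and the other 7 one of -0.12 (4 of 7 below control). The 12 were also the lower group in the other arrays. Their medians were -0.09 against -0.01 in the array labelled moderate (11 of 12 and 5 of 7 below control). In profound 2 they were -0.09 against 0.02 (8 of 12 and 1 of 7), where the ATF4 list median was 0.01. The 7 included QARS1, the highest cytosolic gene in profound 1 (0.29). The same list and the same control array served every comparison here, so the other arrays do not repeat the split independently.

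The interferon gamma list, tied to WARS1, had 11 measured members of 21, and others such as CXCL10 and IFIT1 lay below the filter. Its medians were 0.08, 0.20 and 0.16 log2 units in the arrays labelled moderate, profound 1 and profound 2. At 1.5-fold, 2 were higher in profound 1, beside 2.68% of tested genes. In profound 2, 1 was lower and 1 higher, beside 1.01% and 1.2%, and in the array labelled moderate 1 was lower, beside 0.447%. HLA-DRA was at 0.74 and 0.87 log2 units in profound 1 and profound 2, CIITA at 0.72 in profound 1, GBP2 at -0.70 in profound 2 and GBP4 at -1.09 in the array labelled moderate. The signals behind these low values were dim, 3.05 for GBP2 and 3.09 for GBP4, near the table median (3.08). WARS1 reached 1.2-fold from control in no array. Proliferation genes were also lowest in the array in which AARS1 was lowest. Among 24 measured genes of DNA replication and entry into S phase, profound 1 held 21 that were lower by 1.5-fold or more (median -0.91 log2 units), led by CCNE2 (-1.55), E2F1 (-1.35) and CDC6 (-1.29), beside 4.04% of tested genes. Profound 2 held 1 (median -0.15, beside 1.01%) and the array labelled moderate 0 (median -0.17, beside 0.447%). Below control by any size were 24 of 24 in profound 1 and 23 of 24 in each of the other RUNX1 hairpin arrays. The part of these genes, or of the state of the cells in that culture, in the synthetase values was not tested.

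**Figure D4:**
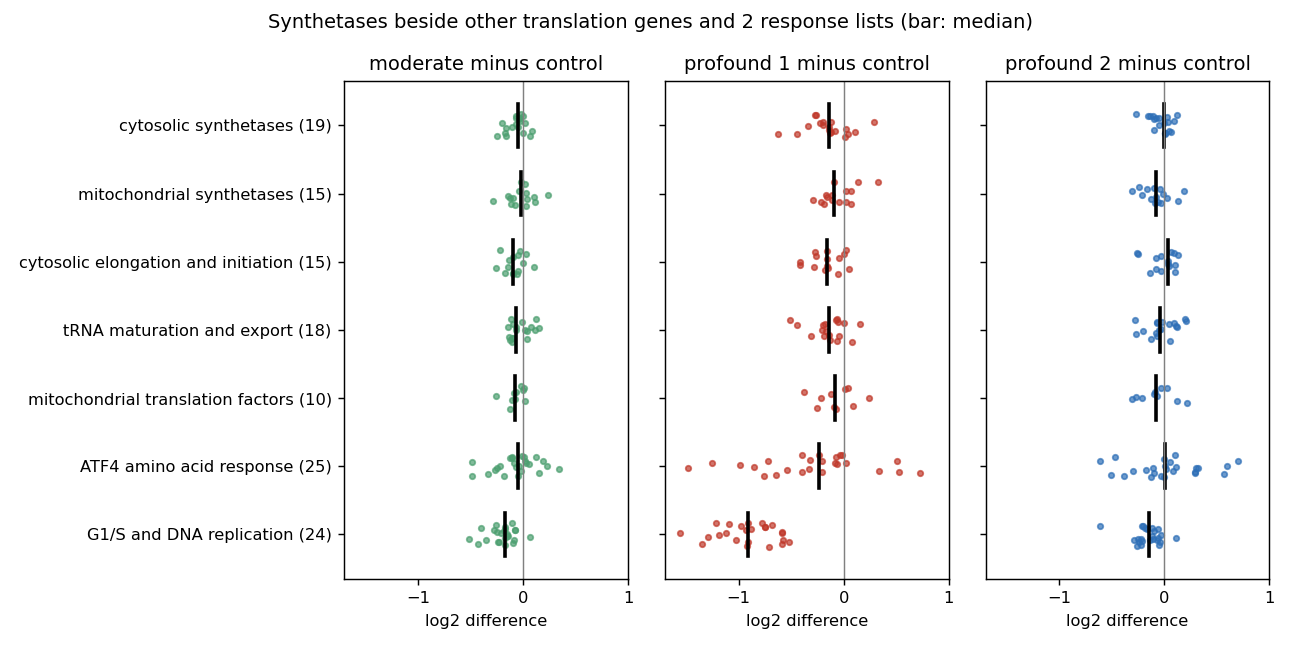
Log2 difference from control (x axis) of each measured gene (points; number of genes in brackets) in the synthetase classes, 3 lists of translation genes and 2 response lists, in the arrays labelled moderate, profound 1 and profound 2; the vertical placement within a row is arbitrary and black bars are medians. In profound 1 the G1/S median is at -0.91 and the ATF4 list median at -0.23, while those of the synthetase classes are at -0.14 and -0.09.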

How the data were processed

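The deposited table holds log2 signals of 53617 probe sets on 4 whole-transcript arrays, which the authors made by RMA. Per the submitters' processing notes, the programs were Transcriptome Analysis Console 1.0 and Affymetrix Expression Console 1.3.1. As RMA generally runs, it corrects background, equalises the arrays' distributions by quantiles and draws dim signals together, so a shift shared by most genes cannot be seen and differences of dim genes are understated. The genome build is not given in the sources used here, nor are settings. Every value column was used (0 unused). The labels do not say that cultures were separate beyond the hairpin.

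Symbols came from the platform annotation (23871 probe sets with 1 symbol, 1842 with several, 27904 unlisted), updated through RefSeq's GRCh38.p14 gene table. Probe sets with several symbols named no gene. Protein-coding genes were kept if above the table median in at least 1 array, and of several probe sets the one with the highest mean was used. Differences are log2, without a test; sizes of 1.5-fold and 1.2-fold were counted, and spreads taken in 6 signal classes. Counting by size was checked on simulated data, in which every pair of arrays differed by the spread of moderate minus control. That spread was 0.17 over all tested genes, against 0.26 for profound 1 minus control. The check therefore does not cover how many genes pass a size by noise in profound 1.

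All 35 members are described; of the other lists, names were open to members past 1.5-fold against control and the 3 largest differences per list and comparison, of which the text gives a part. Members and lists were chosen with earlier results of these data known. Alternatives were the mean of all probe sets, cyclic loess (limma 3.58.1, R 4.3.3), centring, other filters, leaving out GARS1 and KARS1, means over members and, added after seeing the data, shared probe sets and the rescaled list medians. Other work used Python 3.11.15, pandas 2.3.3 and numpy 2.4.6.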

Additional observations from a re-analysis of the deposited data

How the results depend on the processing

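Class medians, class gaps and member counts were recomputed under the alternatives, except that counts have no mean over members. List medians were recomputed with no filter and, added after seeing the data, after cyclic loess and centring. Sign changed in 3 of 96 recomputed class medians, 0 of 48 class gaps and 0 of 54 list medians, and 7 of 168 member counts moved by over 1.5 times. These totals include settings that could not change a class gap. Centring shifts both classes alike, and removing the filter adds no member, so it also leaves class medians and member counts as they were. Under cyclic loess and centring, 54 of 54 values of single named genes kept their side of 1.5-fold. The mitochondrial median in the array labelled moderate, -0.02 as reported, was 0.0012 when only genes above the 75th percentile of the table were kept and 0.0035 with shared probe sets included. Members at least 1.2-fold lower in profound 2 than in control numbered 1 in place of 2 after cyclic loess and after centring, and centring gave 2 in place of 1 in the array labelled moderate and 1 in place of 3 between profound 1 and the array labelled moderate. Members 1.2-fold higher in profound 2 than in the array labelled moderate numbered 2 in place of 1 after cyclic loess and after centring, and with shared probe sets 2 in place of 1 were lower. The cause was not tested. The cytosolic median in profound 2, 3e-05 as reported, was -0.03 as a mean over members. The gap between class medians in the comparisons with control kept its sign under each alternative that could change it: -0.05 to -0.01 log2 units (moderate), -0.10 to -0.04 (profound 1) and 0.04 to 0.08 (profound 2). No paired analysis was possible because each group has 1 array. No array could be left out for the same reason.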
